A study of Mus musculus with 20 samples.

Results

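Complement proteins, clotting factors and their inhibitors, and liver-type plasma proteins were followed as a group of 44 mouse genes in small intestine. The genes were taken by symbol from a fixed list. All 44 were found among the 55487 mouse genes of the table, and 37 of them were among the 17464 genes that held enough counts to be tested. The 7 genes below the filter were Hc, C8a, C9, F7, Fgg, Serpind1 and Plg. The libraries came from polyA RNA of small intestine of mouse offspring, 5 libraries in each of 4 groups: offspring of dams with periodontitis at 7 weeks of age, offspring of control dams at 7 weeks, offspring of dams with periodontitis at 2 weeks and offspring of control dams at 2 weeks. Periodontitis is inflammation of the gum and bone around teeth. It was a condition of the dams, and the labels describe no treatment of the offspring. The comparison of the 2 kinds of dam is the stated purpose of the series, and the ages imply a comparison of 7 with 2 weeks. The labels give no strain, sex, litter, number of animals per library or segment of the intestine, nor how periodontitis was brought about.

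Most of these proteins are made by the liver and secreted into blood. In the complement cascade, C1q with the proteases C1r and C1s starts the classical pathway, factor B drives the alternative pathway, both act on C3, and C5 to C9 build the pore in the target membrane. Regulators such as factor I, CD55, CD59, C1 inhibitor, clusterin and vitronectin hold the cascade in check. In coagulation, tissue factor (F3) and factors VII, X and V lead to thrombin (F2), which turns fibrinogen into fibrin, while antithrombin, protein C, protein S and tissue factor pathway inhibitor restrain it and plasmin dissolves the clot. Intestinal epithelium, macrophages and stroma also make some of these proteins, and the immature enterocyte of the suckling mouse differs widely in its products from the enterocyte after weaning.

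The libraries held 14.9 to 42.6 M counts each. Levels are given in CPM, the deposited counts of a gene per M counts of the library, with library sizes set by edgeR's TMM method, and log2 fold changes have periodontitis over control dams, or 7 over 2 weeks. A gene was called, and is said to have risen or fallen, at an edgeR adjusted p under 0.05 over all 17464 genes. Control library 5 at 2 weeks stood apart from the other libraries, with 29.4% of its counts from mitochondrial genes against 3.99% to 9.15% elsewhere. Another library that differed from its group was periodontitis library 5 of 7 weeks, with 27800 CPM over 5 epithelial genes against 48400 to 88800 CPM in the other libraries of that age. The tissue label fits the markers, since the 5 epithelial genes summed to 19200 CPM or more in every library. Most of each sum was 1 gene, Apoa4, at 15700 CPM or more, while Vil1 was at 511 CPM or more. Apoa4 was at 21500 CPM in periodontitis library 5 of 7 weeks, against 39400 to 78500 CPM in the others of that age. Epcam, Krt8 and Cdh1 were also lowest there, and Vil1, at 1990 CPM, lay within its group. The 10 hepatocyte markers summed to 5.36 to 9.44 CPM in periodontitis offspring and 6.65 to 8.02 CPM in control offspring at 2 weeks. Most of that sum was 1 gene, Hpd, at 4.67 to 8.25 CPM in periodontitis and 3.7 to 6.97 CPM in control offspring. Of the genes that define hepatocytes, Alb (albumin) had 0 to 13 counts and Ahsg (fetuin A) 0 to 4 counts in any library of 2 weeks. Ddx3y, a Y-linked gene, was at 29.2 to 152 CPM in all 10 libraries of 7 weeks and above 1 CPM in 7 of the 10 libraries of 2 weeks. The exceptions were periodontitis libraries 1 and 4 and control library 1, at 0 to 0.716 CPM of Ddx3y. Xist, which female cells express, was at 0.0512 to 0.658 CPM at 7 weeks and 0.71 to 137 CPM at 2 weeks. Control libraries 2 to 4 of 2 weeks held both, with 28, 90 and 70.5 CPM of Xist and 26.5, 16.5 and 16.1 CPM of Ddx3y. So did control library 5, with 16.6 CPM of Xist and 77.4 CPM of Ddx3y. Periodontitis libraries 2 and 5 of 2 weeks also held both, with 7.1 and 7.58 CPM of Xist and 30.7 CPM of Ddx3y in each. The part of sex in the comparisons of age and of dams at 2 weeks was not tested.

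Windows of 250 bases before the transcription start are shown for C8b, the gene called higher in periodontitis offspring at 2 weeks. They are also shown for 2 of the 3 fibrinogen genes and for the 3 antitrypsin copies, whose levels differed between dams to unequal extents. C8b codes for the beta chain of complement C8 (chr4:104766067-104766316, plus strand). Fgb and Fgg code for the beta and gamma chains of fibrinogen (chr3:83049864-83050113, minus strand, and chr3:83007474-83007723, plus strand). Serpina1a, Serpina1b and Serpina1c are copies of the alpha-1 antitrypsin gene (chr12:103863620-103863869, chr12:103738190-103738439 and chr12:103904951-103905200, all on the minus strand). The sequences are from RefSeq on GRCm38.p6, read 5′ to 3′ along the gene. Capitals mark the bases of Serpina1b and Serpina1c that are not matched by the same base of Serpina1a in a global alignment.
C8b: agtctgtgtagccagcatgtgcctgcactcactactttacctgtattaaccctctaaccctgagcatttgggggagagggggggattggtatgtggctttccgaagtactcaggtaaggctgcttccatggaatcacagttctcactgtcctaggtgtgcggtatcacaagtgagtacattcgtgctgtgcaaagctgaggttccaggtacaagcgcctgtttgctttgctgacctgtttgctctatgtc
Fgb: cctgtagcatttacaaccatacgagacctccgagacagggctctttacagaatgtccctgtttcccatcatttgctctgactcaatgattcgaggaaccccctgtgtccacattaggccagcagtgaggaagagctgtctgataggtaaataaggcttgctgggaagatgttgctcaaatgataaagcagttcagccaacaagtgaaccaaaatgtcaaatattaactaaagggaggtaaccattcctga
Fgg: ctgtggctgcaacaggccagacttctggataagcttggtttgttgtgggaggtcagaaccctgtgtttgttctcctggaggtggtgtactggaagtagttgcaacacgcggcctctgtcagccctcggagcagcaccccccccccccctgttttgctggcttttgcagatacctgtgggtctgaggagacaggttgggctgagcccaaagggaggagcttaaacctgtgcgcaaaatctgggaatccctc
Serpina1a: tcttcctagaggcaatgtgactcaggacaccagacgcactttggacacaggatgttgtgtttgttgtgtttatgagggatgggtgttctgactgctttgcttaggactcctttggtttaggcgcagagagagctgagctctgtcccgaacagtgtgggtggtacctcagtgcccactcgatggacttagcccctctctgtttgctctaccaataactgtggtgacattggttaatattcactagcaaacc
Serpina1b: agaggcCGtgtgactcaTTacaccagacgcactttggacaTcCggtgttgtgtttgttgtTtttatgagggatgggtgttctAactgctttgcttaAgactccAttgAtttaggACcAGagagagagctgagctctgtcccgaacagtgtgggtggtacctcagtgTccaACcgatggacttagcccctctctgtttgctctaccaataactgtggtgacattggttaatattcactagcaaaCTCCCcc
Serpina1c: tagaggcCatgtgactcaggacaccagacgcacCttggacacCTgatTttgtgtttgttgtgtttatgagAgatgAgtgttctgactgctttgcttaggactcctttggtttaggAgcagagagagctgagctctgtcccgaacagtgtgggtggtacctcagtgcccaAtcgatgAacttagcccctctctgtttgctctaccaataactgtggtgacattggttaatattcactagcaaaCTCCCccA

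A RefSeq window was found for 32 of the 44 genes. The Serpina1a window was 88% identical to that of Serpina1b and 91.4% identical to that of Serpina1c, and Serpina1b and Serpina1c were 90.9% identical to each other.

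At 2 weeks, edgeR called 1 of the 37 genes higher in offspring of periodontitis dams and 0 lower. Over all genes tested 0.0286% were called and 0.0172% were called higher. That gene was C8b. It met the filter for testing only with the periodontitis libraries of 2 weeks, as did Fgb. The p of these genes is therefore not read as evidence of a rise, and both are included in the counts that follow. A further 8 genes lay higher at an unadjusted p under 0.05 without passing the adjustment: C2, C8g, Cfi, F10, Fga, Fgb, Serpina1a and Ttr. Cd55 lay lower. These 10 genes were 27% of the 37, and 14.4% of all genes had an unadjusted p that low. By direction they were 9 higher, where the background was 5.31%, and 1 lower, where it was 9.07%. Of the 37 genes 29 were higher, with a median log2 fold change of 0.21, against 0.02 over all genes. In 6 genes every periodontitis library lay above every control library (16.2%, background 3.71%), and in Cd55 every one lay below (2.7%, background 3.54%).

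C8b, whose chain joins the terminal complex of complement, was at 2.9, 1.45, 14.8, 11.1 and 18.8 CPM in libraries 1 to 5 of periodontitis offspring, against 0.794, 0.69, 1.11, 0.154 and 0.563 CPM in control offspring. The groups did not overlap, and periodontitis libraries 3 to 5 lay well above libraries 1 and 2. The means were 9.82 ± 7.51 CPM and 0.663 ± 0.35 CPM (SD, n = 5 each), a log2 fold change of 3.86 ± 0.63 (SE, edgeR adjusted p = 0.0427). The call was held in 13 of 28 alternative settings, with log2 fold changes of 3.38 to 4.15 and edgeR or DESeq2 adjusted p between 4.1e-06 and 0.249. Control library 4 held 7 counts of C8b, and no library of 7 weeks held more than 8. Without the periodontitis libraries of 2 weeks, too few libraries therefore reached the filter. C8b is on chr4:104766317-104804548 (GRCm38, plus strand), 11130 bases from C8a, which codes for the alpha chain of the same complex. C8a had 6 counts in all periodontitis libraries and 2 in all control libraries of 2 weeks, too few to compare. The gamma chain gene C8g, on chromosome 2, was at 1.59, 1.11, 2.66, 2.06 and 3.33 CPM in periodontitis offspring and 1.18, 1.27, 1.41, 0.748 and 0.644 CPM in control offspring. Its log2 fold change was 1.00 ± 0.30 (edgeR adjusted p = 0.129), and the groups overlapped. C9, the chain that forms most of the pore, was at 0.192 to 0.671 CPM in periodontitis offspring and 0.066 to 0.241 CPM in control offspring and was not tested. The other terminal genes tested, C6 and C7, had log2 fold changes of -0.02 ± 0.38 and -0.22 ± 0.59. Hc, the gene of C5, had 28 counts in periodontitis and 12 counts in control offspring.

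**Figure D1:**
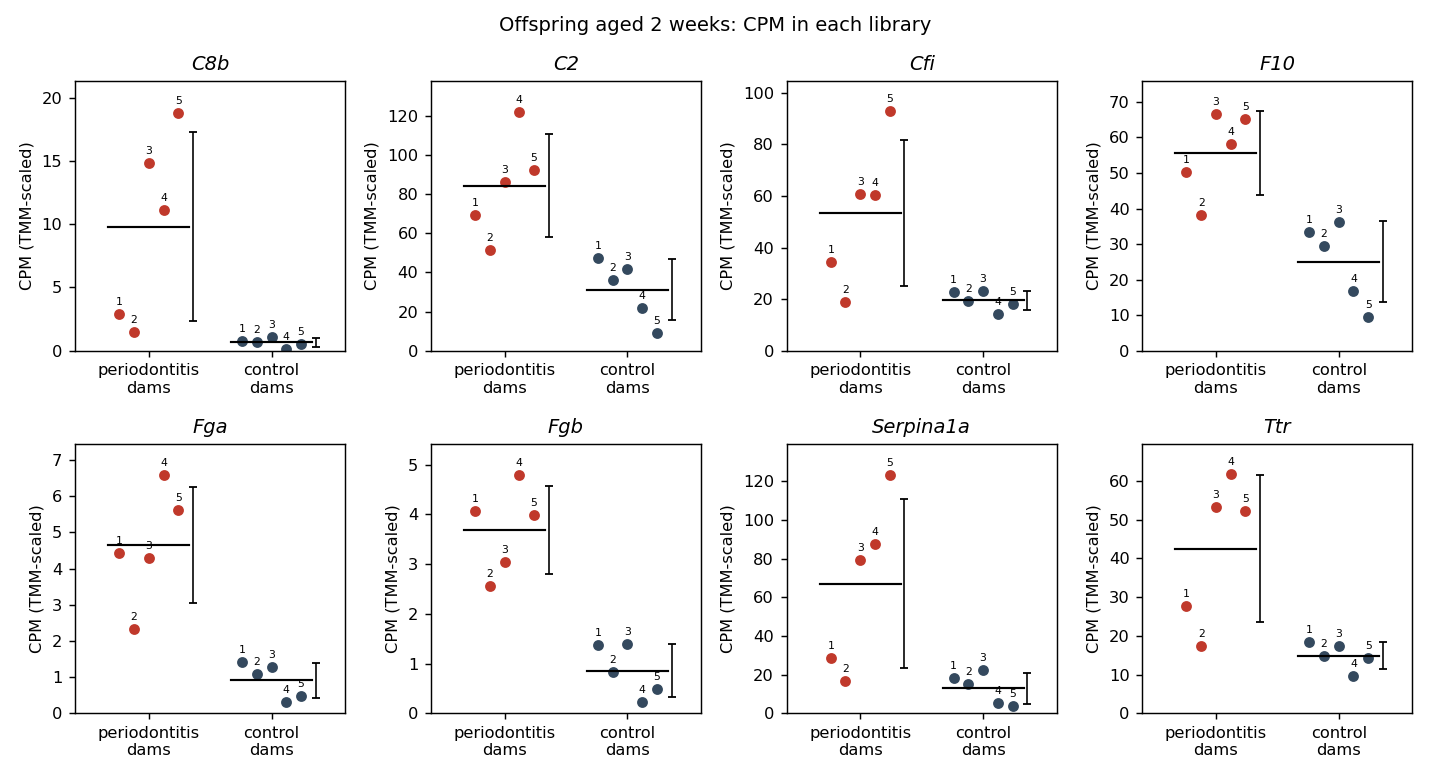
Levels at 2 weeks (CPM, linear axes from 0) in each of the 5 libraries of periodontitis dams (red) and of control dams (dark), for 8 genes. Numbers beside points are library numbers, horizontal lines are means and bars are SD (n = 5). Periodontitis libraries 3 to 5 lie highest for C8b, Cfi, Serpina1a and Ttr, and the groups do not overlap for C8b, C2, F10, Fga and Fgb.

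Fibrinogen is a hexamer of 3 chains, whose genes lie together on chromosome 3 within chr3:83007724-83049863 (GRCm38). Fga was at 4.43, 2.32, 4.3, 6.58 and 5.61 CPM in periodontitis offspring, against 1.41, 1.1, 1.27, 0.308 and 0.483 CPM in control offspring. Fgb was at 4.06, 2.56, 3.04, 4.79 and 3.98 CPM in periodontitis offspring, against 1.38, 0.828, 1.39, 0.22 and 0.483 CPM in control offspring. Neither gene's groups overlapped, and control libraries 4 and 5 were the lowest of all. The log2 fold changes were 2.30 ± 0.43 for Fga and 2.06 ± 0.44 for Fgb, and neither passed (edgeR adjusted p = 0.0545 and 0.0688). Fgb, with 10 counts in control library 4 and 0 counts at 7 weeks, met the filter only with the periodontitis libraries of 2 weeks. Its p is therefore not read as evidence of a rise. Fgg, at 0.179 to 0.284 CPM in periodontitis offspring and 0 to 0.069 CPM in control offspring, was below the filter for testing. Per kilobase of exon, Fgg stood far below the other chains at this age: its 60 counts over the 5 periodontitis libraries compare with 1195 for Fga and 946 for Fgb, although its exons are 2093 bases long against 3010 and 3810 bases.

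The antitrypsin copies, which inhibit neutrophil elastase and related proteases, differed from each other. Serpina1a was at 28.8, 16.9, 79.3, 87.4 and 123 CPM in periodontitis offspring, against 18.1, 15, 22.5, 5.52 and 3.86 CPM in control offspring. Periodontitis library 2 lay within the control range and libraries 3 to 5 lay above it by a wide margin. Its log2 fold change was 2.36 ± 0.50 (edgeR adjusted p = 0.0541). Serpina1b differed by 0.42 ± 0.23 (adjusted p = 0.41) and Serpina1c by 0.11 ± 0.25 (adjusted p = 0.86) in the same fit of edgeR. Since these copies are nearly identical in sequence, the authors' counting could have moved reads between them. Summed over Serpina1a to Serpina1e, the level was 130, 81.7, 209, 267 and 288 CPM in periodontitis offspring and 89.5, 77.5, 105, 48 and 32.5 CPM in control offspring, so the sum also overlapped only through periodontitis library 2. Ttr, transthyretin, the carrier of thyroid hormone and of retinol-binding protein, was at 27.7, 17.5, 53.3, 61.8 and 52.3 CPM in periodontitis offspring. In control offspring it was at 18.5, 14.8, 17.4, 9.71 and 14.2 CPM. It showed the same order of periodontitis libraries as Serpina1a in that libraries 1 and 2 were lowest, with a log2 fold change of 1.51 ± 0.39 (edgeR adjusted p = 0.0877).

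In the classical pathway, C2, the protease that joins C4b to form the C3 convertase, was at 69.6, 51.6, 86.4, 122 and 92.4 CPM in periodontitis offspring. It was at 47.3, 35.9, 41.6, 21.7 and 9.18 CPM in control offspring, without overlap, a log2 fold change of 1.43 ± 0.31 (edgeR adjusted p = 0.0545). Cfb, the alternative pathway's counterpart of C2, starts 85 bases from it on chromosome 17 and differed by 0.04 ± 0.25. Exons of an annotated readthrough locus, Gm20547, cover 42.8% of C2 and 79.5% of Cfb exons, but it held 0.0132 CPM on average. C1ra, C1s1 and C4b differed by 0.22 ± 0.35, 0.09 ± 0.16 and 0.07 ± 0.35. The genes of the C1q chains, which in most tissues are made by macrophages, had log2 fold changes of 0.33 to 0.46, and the 8 macrophage markers summed to 241 to 356 CPM in periodontitis and 179 to 222 CPM in control offspring. Without control library 5, which had 2.33 CPM of C1qa against 26 to 31.3 CPM in the other control libraries, the C1qa difference was 0.12. C3 and properdin (Cfp), which steadies the C3 convertase of the alternative pathway, differed by 0.11 ± 0.33 and 0.21 ± 0.25. Cfp was at 5.23, 4.24, 4.69, 4.26 and 4.38 CPM in periodontitis and 4.38, 4.6, 4.32, 4.34 and 1.85 CPM in control offspring, which overlapped.

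Among the regulators, Cfi, the protease that cuts C3b and C4b, was at 34.5, 19, 60.9, 60.2 and 92.9 CPM in periodontitis offspring and 22.7, 19.2, 23.3, 14.1 and 18.2 CPM in control offspring. Periodontitis library 2 lay within the control range, and the log2 fold change was 1.45 ± 0.34 (edgeR adjusted p = 0.0625). Cd55, the membrane protein that takes C3 convertases apart, ran from 31.3 to 40.6 CPM in periodontitis offspring, against 43.3 to 47.2 CPM in control libraries 1 to 4 and 141 CPM in control library 5. Its log2 fold change of -0.93 ± 0.35 became -0.42 without that library (edgeR adjusted p = 0.232 and 0.636). Vtn, vitronectin, which binds the forming pore, was at 2.06 to 2.8 CPM in periodontitis and 0.885 to 1.92 CPM in control offspring, a log2 fold change of 0.68 ± 0.45. Cd59a, Serping1 (C1 inhibitor) and Clu (clusterin) differed by -0.11 to 0.20.

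Of the clotting factors, F10, the protease that with factor V makes thrombin, was at 50.2, 38.2, 66.6, 58.1 and 65.1 CPM in periodontitis offspring. It was at 33.3, 29.4, 36.3, 16.8 and 9.42 CPM in control offspring, without overlap, a log2 fold change of 1.15 ± 0.30 (edgeR adjusted p = 0.0922). Its neighbour F7, 1498 bases away on chromosome 8, held 10 counts in periodontitis and 5 counts in control offspring. F2, F3, F5 and F13a1 differed by -0.30 to 0.29. Of the anticoagulants 0 passed: Proc, the gene of protein C, was at 2, 1.36, 1.64, 1.65 and 1.79 CPM in periodontitis and 1.78, 1.59, 1.23, 1.54 and 0.402 CPM in control offspring (log2 fold change 0.33 ± 0.26), and Serpinc1, Tfpi and Pros1 differed by 0.10 to 0.21. Of the genes that activate plasminogen, Plau (urokinase) was at 10.3, 9.12, 11.7, 10.1 and 13.5 CPM in periodontitis and 8.14, 8.65, 9, 16 and 6.2 CPM in control offspring (log2 fold change 0.18 ± 0.21), and Plat differed by 0.01 ± 0.30. Plg itself had 8 counts in periodontitis and 5 counts in control offspring.

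**Figure D2:**
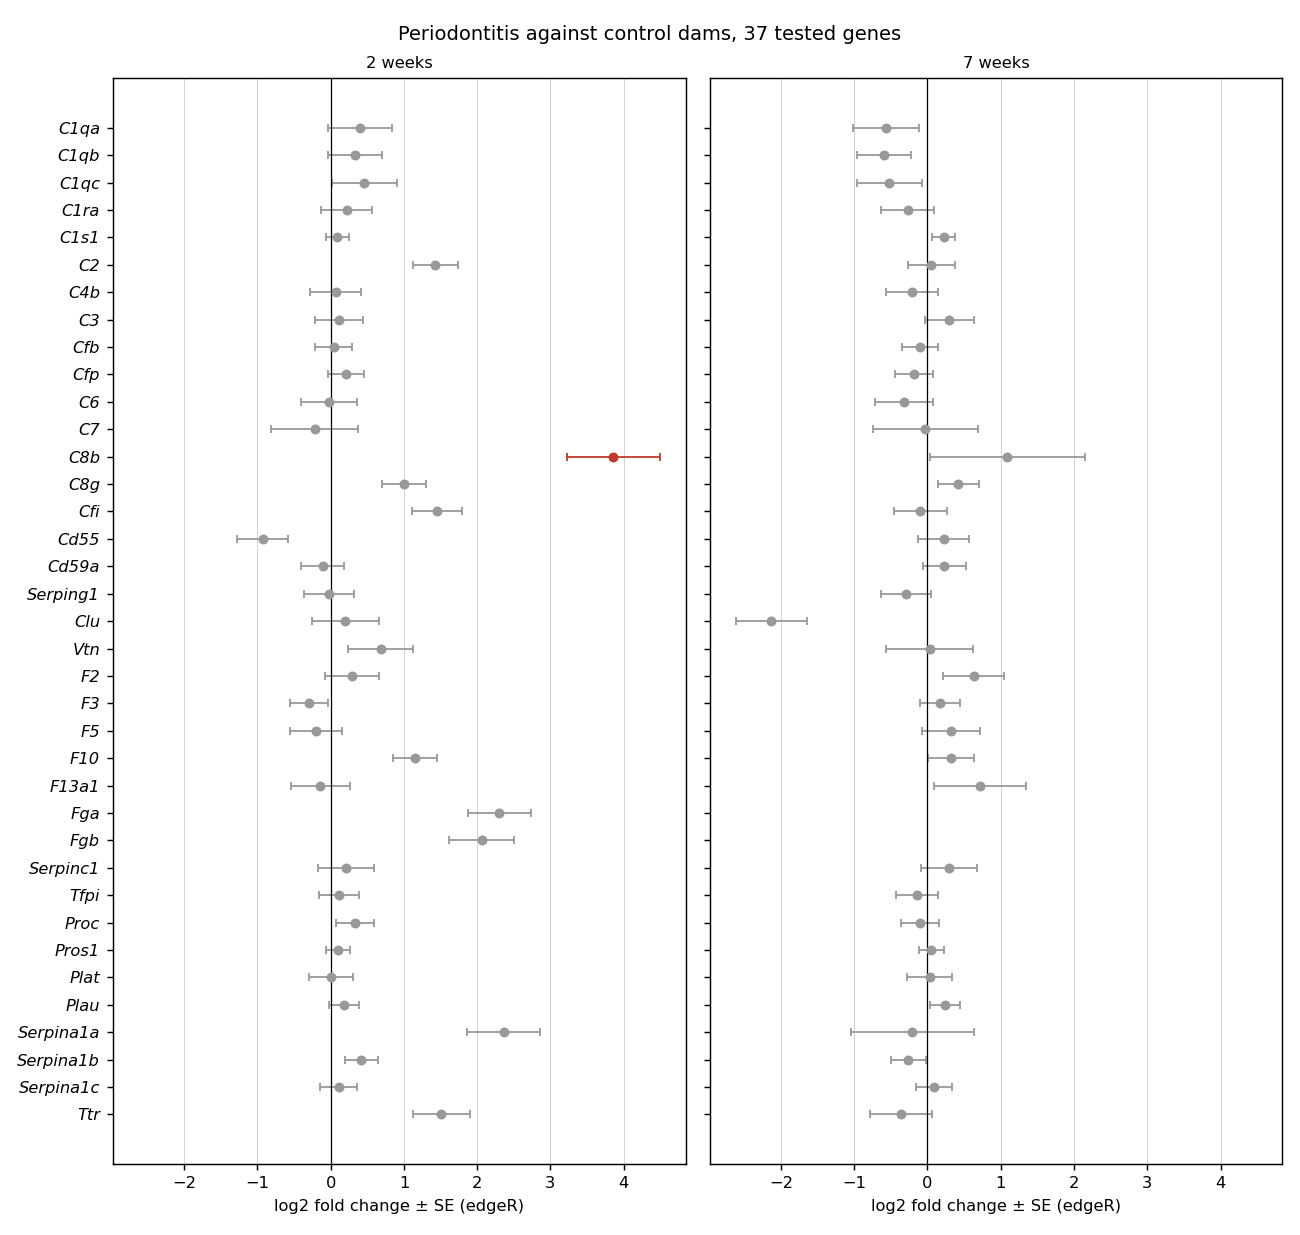
Log2 fold change of periodontitis against control dams at 2 weeks (left) and 7 weeks (right) for the 37 tested genes, from edgeR. Points are estimates and bars are SE, with red for a gene called higher and grey for genes that were not called. C8b at 2 weeks, at 3.86, is the only coloured point. Fga and Fgb have no point at 7 weeks, where they held 0 counts.

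Markers of the enterocyte's age differed between the libraries of 2 weeks. The 8 markers of suckling enterocytes summed to 2760, 1960, 4650, 4590 and 5430 CPM in periodontitis offspring, against 1950, 1660, 2010, 990 and 734 CPM in control offspring. Most of the higher sums was Fcgrt, the neonatal Fc receptor that takes up milk antibodies, at 1440, 951, 3290, 3110 and 4050 CPM in periodontitis and 76 to 1000 CPM in control offspring. Of the 8 markers 6 had log2 fold changes above 0 and 2 below, namely Cubn (-0.26 ± 0.43) and Nox4 (-0.06 ± 0.45), and 0 were called. For Cubn, an endocytic receptor, periodontitis libraries 3 to 5 held 173, 156 and 171 CPM, and libraries 1 and 2 held 280 and 261 CPM. The 5 markers of weaned enterocytes, such as the disaccharidase Sis, all had log2 fold changes below 0. They summed to 1800, 2170, 711, 530 and 609 CPM in periodontitis offspring and 2540, 2360, 2520, 3250 and 4970 CPM in control offspring. Periodontitis libraries 3 to 5, in which C8b, Cfi, Serpina1a and Ttr were highest, were the libraries with the highest suckling sums and the lowest weaned sums.

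Markers of the segment gave no single direction at 2 weeks. Of the 5 distal markers, Fabp6, the ileal bile acid binding protein, had 17.5, 2.92 and 8.07 CPM in periodontitis libraries 3 to 5, against 365 and 328 CPM in libraries 1 and 2 and 197 to 510 CPM in control offspring. Fgf15, an ileal hormone, lay higher in periodontitis offspring (0.67 ± 0.24) and Slc51a differed by 0.09 ± 0.26. Slc10a2 and Slc51b lay lower, at -2.66 ± 0.76 and -0.55 ± 0.28. The 4 proximal markers tested also had log2 fold changes below 0. Gata4, Slc40a1 and Fabp1 differed little, at -0.14 ± 0.24, -0.08 ± 0.72 and -0.14 ± 0.18, and Cybrd1 was at -1.59 ± 0.55. Cybrd1 had 70.5, 58.1 and 103 CPM in periodontitis libraries 3 to 5, against 492 and 500 CPM in libraries 1 and 2 and 547 to 860 CPM in control offspring. None of these segment markers was called. In bulk tissue, fewer cells of a type and less RNA per cell cannot be told apart, and the part of the enterocyte and segment markers in the result was not tested.

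The count at 2 weeks depended on the libraries and the tool. DESeq2 called 9 of the 37 genes, all higher, where it called 3.43% of all genes. Without control library 5 of 2 weeks and periodontitis library 5 of 7 weeks, edgeR called 8 of 38, all higher, where it called 2.04% of all genes. Without control library 5 alone it called 2 genes, and without periodontitis library 2 it called 9. It called 0 without any one of 12 other libraries, periodontitis libraries 3, 4 or 5 of 2 weeks among them. Over all genes, leaving out each library in turn gave 0 to 387 calls. The counts with a library left out are therefore not read as particular to the 37 genes.

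At 7 weeks, edgeR called 0 of the 37 genes between dams, where 0.0115% of all genes were called, and DESeq2 called 1, Clu, where it called 0.143% of all genes. The only gene with an unadjusted p under 0.05 was Clu (2.7% of the 37, background 3.33% in either direction and 1.67% lower). In 0 of the 37 genes were the groups free of overlap, with a background of 0.246% above and 0.281% below. The median log2 fold change was 0, against 0.02 over all genes, with 18 genes higher, 17 lower and 2 at 0 counts. C8b held 17 counts in all periodontitis libraries and 8 in all control libraries of this age.

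Clu, clusterin, which blocks insertion of the terminal complex into membranes, was at 2.91, 1.79, 2.56, 6.17 and 4.43 CPM in periodontitis offspring at 7 weeks, against 14.8, 11.2, 37.9, 10.7 and 2.7 CPM in control offspring. Only control library 5 lay within the periodontitis range. The means were 3.57 ± 1.74 CPM and 15.5 ± 13.3 CPM (SD, n = 5 each), with a log2 fold change of -2.13 ± 0.49 (edgeR adjusted p = 0.288). DESeq2 gave Clu an adjusted p of 0.00722 and a log2 fold change of -2.11. Without control library 3, the highest, edgeR's value was the smallest of all settings at -1.47.

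The C1q chains, a product of macrophages in most tissues, had log2 fold changes below 0 at 7 weeks, and none of the 3 passed. C1qb was at 19.6, 13.1, 8.59, 6.61 and 32 CPM in periodontitis offspring and 31.8, 15.3, 42.5, 15.3 and 15.6 CPM in control offspring, which overlapped. Its log2 fold change was -0.59 ± 0.37, and those of C1qa and C1qc were -0.57 ± 0.45 and -0.52 ± 0.44. Without periodontitis library 5, which stands apart, they were -0.96 for C1qa, -1.01 for C1qb and -0.98 for C1qc (edgeR adjusted p = 0.332 to 0.522). That library had 57.9 CPM over 4 endothelial markers against 18.4 to 27.5 CPM in the other periodontitis libraries, and the part of this in the C1q values was not tested. Macrophage markers summed to 116 to 245 CPM in periodontitis and 147 to 225 CPM in control offspring.

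In the remaining roles 0 genes passed at 7 weeks. C3 was at 14.9, 6.39, 9.53, 17.4 and 6.33 CPM in periodontitis and 10.3, 16.2, 7.54, 4.13 and 6.12 CPM in control offspring (log2 fold change 0.30 ± 0.33). C8g was at 10, 13.5, 16.9, 12.5 and 6.13 CPM in periodontitis and 7.53, 9.37, 7.22, 9.81 and 10.2 CPM in control offspring (0.42 ± 0.28). Both genes' groups overlapped. F2, prothrombin, was at 0.187 to 0.694 CPM in periodontitis and 0.147 to 0.564 CPM in control offspring (0.63 ± 0.42). Serpinc1, antithrombin, was at 2.2, 4.91, 3.98, 5.11 and 1.56 CPM in periodontitis and 2.32, 4.07, 2.03, 3.62 and 2.46 CPM in control offspring (0.29 ± 0.38). Reads of Serpinc1 cannot be told from those of the antisense gene Zbtb37 over 34.4% of its exons, since the strandedness of the counting is not given. Plau ran from 4.14 to 7.14 CPM in periodontitis and 4.83 to 6.03 CPM in control offspring (0.24 ± 0.21), and Serpina1b from 1.69 to 4.05 CPM and 2.52 to 3.98 CPM in the same order of groups (-0.26 ± 0.24).

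**Figure D3:**
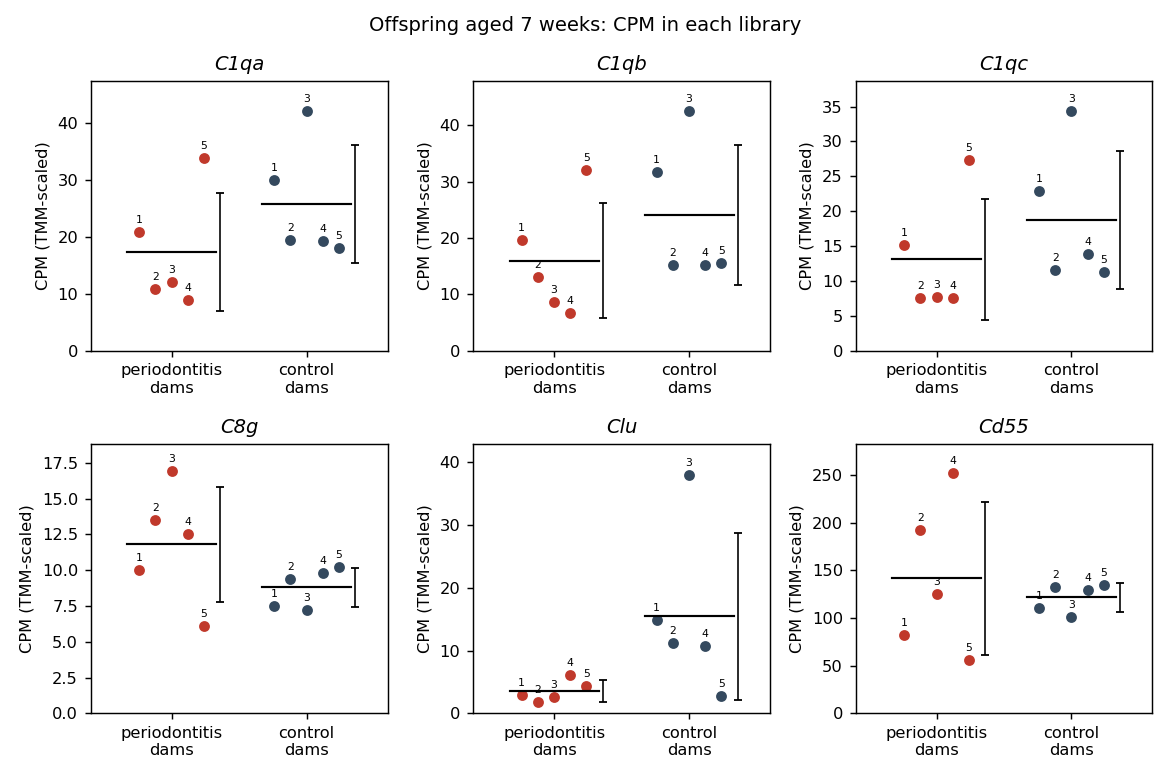
Levels at 7 weeks (CPM, linear axes from 0) in each library of periodontitis dams (red) and control dams (dark) for 6 genes, with library numbers, means and SD (n = 5). Periodontitis library 5 is the highest of its group for the C1q genes. Clu is at 1.79 to 6.17 CPM in periodontitis libraries and at 10.7 to 37.9 CPM in control libraries 1 to 4.

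The difference of the dam effect between the ages was called in 0 of the 37 genes, where 0.0229% of all genes were called. In 6 genes its unadjusted p was under 0.05 (16.2%, background 8.8%), 1 higher, where the background was 5.5%, and 5 lower, where it was 3.3%. Of these the effect at 7 weeks minus the effect at 2 weeks was -1.39 ± 0.45 for C2, -1.55 ± 0.49 for Cfi, -2.32 ± 0.67 for Clu, -2.56 ± 0.98 for Serpina1a and -1.87 ± 0.57 for Ttr, and 1.14 ± 0.50 for Cd55. Their edgeR adjusted p ran from 0.372 to 0.553. For C8b the difference was -2.78 ± 1.37 (edgeR adjusted p = 0.574), so the value at 2 weeks is not shown to differ from that at 7 weeks. Ttr was the gene called without the libraries that stand apart, at -2.46 (edgeR adjusted p = 0.0446), where 0.899% of all genes were called.

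Age separated these genes far more than the dams did. In offspring of periodontitis dams 28 of the 37 genes were called between 7 and 2 weeks (75.7%), 3 higher and 25 lower, where 66.1% of all genes were called, 30.4% higher and 35.7% lower. In offspring of control dams 27 were called (73%), 4 higher and 23 lower, where 61.5% of all genes were called, 27.1% higher and 34.4% lower. The share called was thus near the background, while the share that fell was above it. The median log2 fold change was -1.24 in periodontitis and -1.30 in control offspring, against -0.11 and -0.13 over all genes. In periodontitis offspring every library of 7 weeks lay below every library of 2 weeks in 20 genes (54.1%, background 28.3%) and above in 3 (8.11%, background 24.9%). In control offspring these were 22 genes (59.5%, background 23.2%) and 2 genes (5.41%, background 22.5%). Both comparisons of age use groups that also enter the comparisons of dams. Fibroblast markers summed to 83.8 to 275 CPM at 7 weeks and 679 to 2150 CPM at 2 weeks, and suckling enterocyte markers to 333 to 773 CPM at 7 weeks and 734 to 5430 CPM at 2 weeks, over both kinds of dam. Pancreatic acinar markers were at 5.5 to 11.5 CPM at 7 weeks and 123 to 1250 CPM at 2 weeks. The part of these markers in the falls was not tested.

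Both tested fibrinogen genes fell. Fga and Fgb had 0 counts in all 10 libraries of 7 weeks. Against 3 counts over a group, Fga was at least 196-fold lower in periodontitis and at least 43.9-fold lower in control offspring, and Fgb at least 155-fold and at least 41-fold lower. Fgg, which was not tested, had 0 counts at 7 weeks too, against 60 counts in periodontitis and 10 counts in control offspring at 2 weeks. The counts allow no more than the bounds, and the larger bounds in periodontitis offspring follow from their higher counts at 2 weeks.

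Serpina1a was at 0 to 0.346 CPM in periodontitis and 0.117 to 0.431 CPM in control offspring at 7 weeks, against 16.9 to 123 CPM and 3.86 to 22.5 CPM at 2 weeks. It fell by 8.22 ± 0.71 on the log2 scale in periodontitis and by 5.66 ± 0.66 in control offspring. Serpina1b fell by 3.48 ± 0.25 in periodontitis and by 2.81 ± 0.25 in control offspring, and Serpina1c did not pass, at -0.13 ± 0.25 and -0.10 ± 0.25. At 7 weeks the copies therefore stood in another order than at 2 weeks: Serpina1b averaged 2.59 and 3.12 CPM, Serpina1c 2.2 and 2.07 CPM, and Serpina1a 0.213 and 0.251 CPM in periodontitis and control offspring. Their exons are 2415, 1361 and 1832 bases long in the annotation. Ttr fell by 4.71 ± 0.45 in periodontitis and by 2.84 ± 0.42 in control offspring.

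C2 and Cfb, the neighbouring proteases of the classical and the alternative pathway, went opposite ways with age. C2 fell by 3.78 ± 0.35 in periodontitis and by 2.39 ± 0.33 in control offspring. Cfb was at 204, 196, 214, 154 and 160 CPM in periodontitis offspring at 7 weeks, against 152, 139, 111, 114 and 108 CPM at 2 weeks. In control offspring it was at 174, 191, 214, 190 and 226 CPM at 7 weeks, against 154, 140, 146, 131 and 37.7 CPM at 2 weeks. No library of 2 weeks reached those of 7 weeks in either kind of offspring, and the rises were 0.57 ± 0.25 and 0.71 ± 0.25 (edgeR adjusted p = 0.0487 in periodontitis and 0.0184 in control offspring). The control rise lost its call when its groups were fitted alone (0.67, edgeR adjusted p = 0.0854) and was 0.48 without control library 5 of 2 weeks, still called. C1ra fell by 2.23 ± 0.37 in periodontitis and by 1.74 ± 0.36 in control offspring, and C1s1 by 0.93 ± 0.16 and by 1.06 ± 0.16. C1qb and C1qc fell in periodontitis offspring, by 1.09 ± 0.37 and 1.24 ± 0.44. In control offspring they differed by -0.18 ± 0.37 and -0.26 ± 0.44, and the difference between the kinds of dam was not called for either gene. C3, C4b and Cfp were not called in either.

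The chains of C8 parted with age. C8g was at 10, 13.5, 16.9, 12.5 and 6.13 CPM in periodontitis offspring at 7 weeks, against 1.59, 1.11, 2.66, 2.06 and 3.33 CPM at 2 weeks. In control offspring it was at 7.53, 9.37, 7.22, 9.81 and 10.2 CPM at 7 weeks, against 1.18, 1.27, 1.41, 0.748 and 0.644 CPM at 2 weeks. It rose by 2.46 ± 0.30 in periodontitis and by 3.03 ± 0.31 in control offspring, without overlap in either. C8b fell by 6.18 ± 0.76 in periodontitis and by 3.40 ± 0.86 in control offspring, to at most 0.277 CPM in any library of 7 weeks. C9 had 0 counts in all libraries of 7 weeks, at least 16.9-fold lower in periodontitis and at least 7.13-fold lower in control offspring. C6 fell in periodontitis offspring by 0.98 ± 0.39.

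Regulators fell with age, Cd55 excepted. Cd55 was at 82.7, 192, 125, 252 and 55.8 CPM in periodontitis offspring at 7 weeks, against 40.6, 32.8, 31.4, 33.1 and 31.3 CPM at 2 weeks, a rise of 2.06 ± 0.36. In control offspring it was at 111, 133, 101, 129 and 135 CPM at 7 weeks, against 43.3, 46.3, 44.6, 47.2 and 141 CPM at 2 weeks, a rise of 0.92 ± 0.35. Only control library 5 of 2 weeks reached the levels of 7 weeks, and without it the rise was 1.42. Cfi fell by 4.26 ± 0.39 in periodontitis and by 2.70 ± 0.36 in control offspring, Clu by 4.32 ± 0.53 and by 2.00 ± 0.48, while Vtn fell by 3.37 ± 0.54 in periodontitis and by 2.71 ± 0.53 in control offspring. Cd59a and Serping1 fell by 0.95 to 1.45.

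All 5 clotting factors tested fell in control offspring and 4 of the 5, F2 excepted, in periodontitis offspring. F10 fell by 3.39 ± 0.33 in periodontitis and by 2.56 ± 0.32 in control offspring. F13a1, the fibrin cross-linking enzyme that macrophages and platelets carry, was at 0.0786 to 0.174 CPM in periodontitis and 0 to 0.161 CPM in control offspring at 7 weeks, against 0.537 to 1.24 CPM and 0.6 to 1.85 CPM at 2 weeks. It fell by 2.73 ± 0.49 in periodontitis and by 3.59 ± 0.53 in control offspring. Among the anticoagulants, Tfpi fell by 3.10 ± 0.30 in periodontitis and by 2.85 ± 0.29 in control offspring and Pros1 by 0.86 ± 0.17 and by 0.81 ± 0.17. Proc rose in control offspring, by 0.68 ± 0.26, at 1.51 to 2.46 CPM at 7 weeks against 1.23 to 1.78 CPM in control libraries 1 to 4 and 0.402 CPM in control library 5 at 2 weeks. In periodontitis offspring Proc differed by 0.25 ± 0.26. Plat fell by 1.69 ± 0.31 in periodontitis and by 1.70 ± 0.31 in control offspring, and Plau by 0.82 ± 0.21 and by 0.87 ± 0.21.

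**Figure D4:**
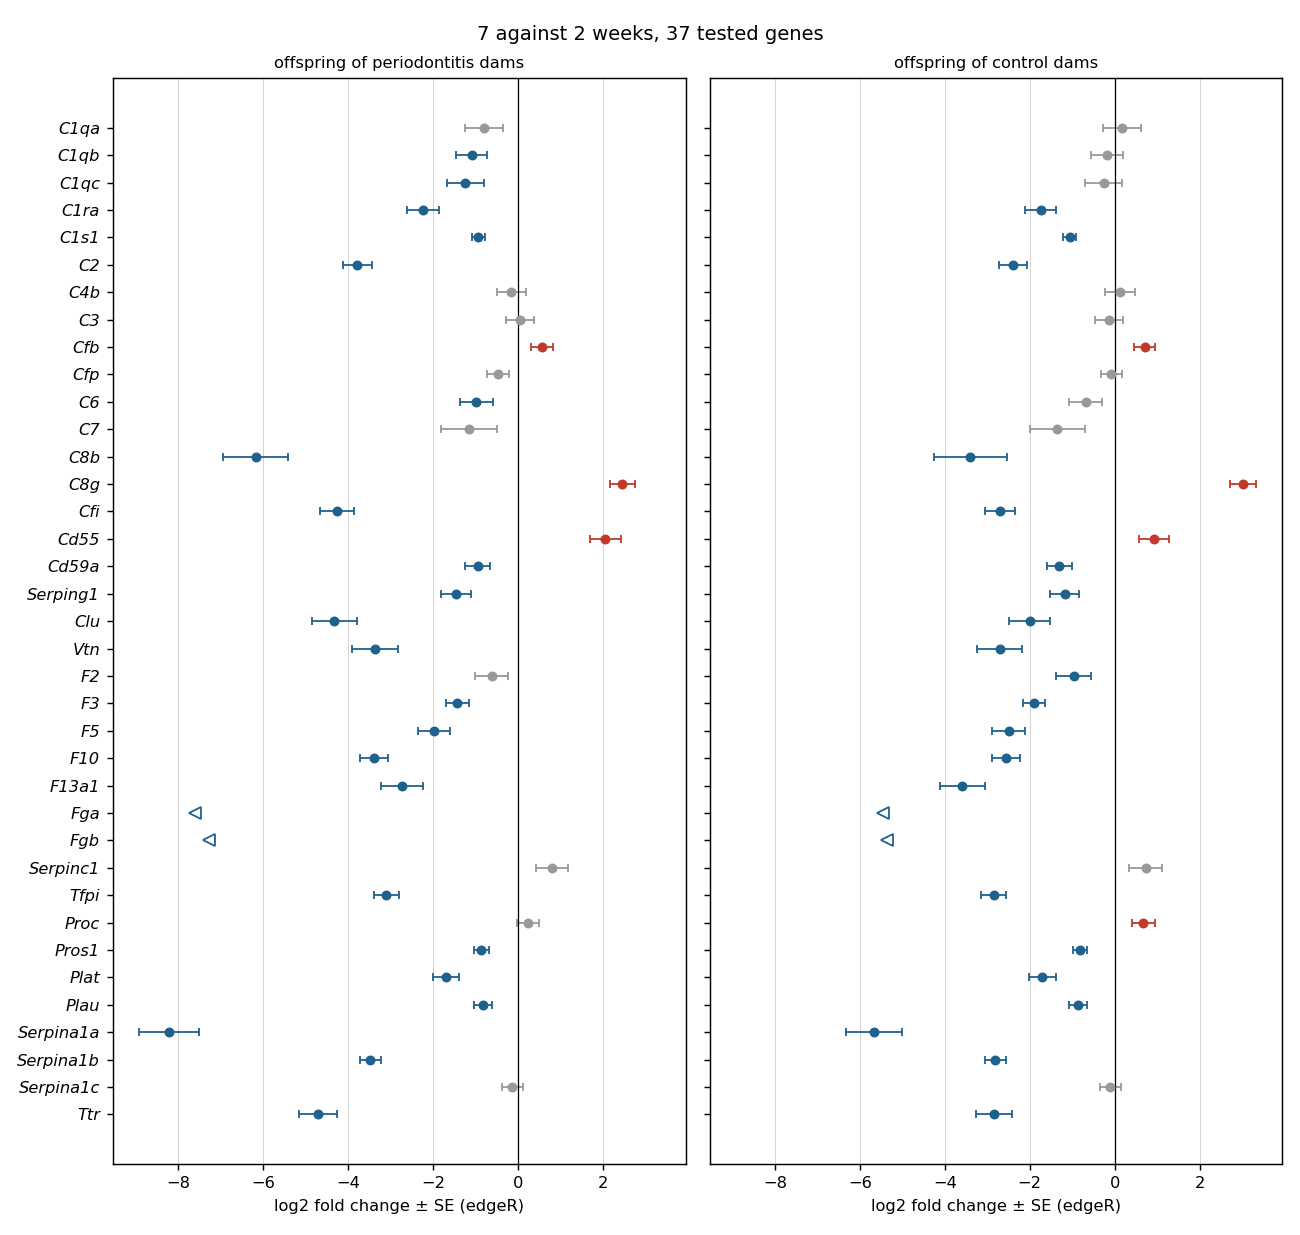
Log2 fold change of 7 against 2 weeks for the 37 tested genes in offspring of periodontitis dams (left) and of control dams (right), from edgeR. Points are estimates and bars are SE, with red for genes that rose, blue for genes that fell and grey for genes not called. Open triangles for Fga and Fgb, which held 0 counts at 7 weeks, mark the bound of at least that large a fall. Most points lie left of 0, and Cfb, C8g and Cd55 lie right of it in both panels.

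Per kilobase of exon, Cfb had the highest level of the 44 genes in every group: 65.7 ± 9.57 CPM per kilobase in periodontitis and 70.5 ± 7.4 in control offspring at 7 weeks, and 44.2 ± 6.99 and 43.1 ± 16.9 at 2 weeks (SD, n = 5 each). Next in the mean were Cd55 at 7 weeks, at 29.2 ± 16.6 in periodontitis and 25.1 ± 3.1 in control offspring. At 2 weeks the next were Serpina1a in periodontitis offspring, at 36.6 ± 24, and C1qb in control offspring, at 25 ± 6.75. Ttr followed in periodontitis offspring of 2 weeks at 35.9 ± 15.9, within the SD of Serpina1a. C8a, F7, Serpind1 and Plg held 1 to 15 counts per group and Hc 12 to 28, so their levels were near the limit of these libraries.

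Further genes of the same systems, from 5 lists, were read beside the 44. At 2 weeks 0 of the 73 tested genes of these lists was called between dams, and at 7 weeks also 0. At 2 weeks the lists' medians ran from -0.17 for complement receptors to 0.29 for further clotting genes. Of the 19 further liver-type plasma protein genes tested, 11 were higher and 8 lower in periodontitis offspring of 2 weeks, with a median of 0.16, and 4 had an unadjusted p under 0.05. Afp, alpha-fetoprotein, was at 13, 14, 20.9, 54.6 and 36 CPM in periodontitis offspring and 9.98 to 12.1 CPM in control offspring (1.35 ± 0.30, edgeR adjusted p = 0.0545). Serpina1e differed by 1.52 ± 0.42 and Serpina1d by 1.49 ± 0.52 (edgeR adjusted p = 0.101 and 0.187). The fourth, Hp (haptoglobin), lay lower, at -1.71 ± 0.69 (edgeR adjusted p = 0.261), as did Apoa2 and Cp, at -0.82 ± 0.53 and -0.54 ± 0.39. Among the clotting genes Kng1, kininogen, differed by 3.35 ± 0.65 (edgeR adjusted p = 0.0579), on 187 counts in periodontitis and 13 counts in control offspring. With 0.022 to 0.092 CPM in the control libraries and 0 counts at 7 weeks, Kng1 met the filter only through the periodontitis libraries of 2 weeks. Its p is therefore not read as evidence of a rise. Hnf4g, a transcription factor that enterocytes make, was counted in the list of liver-enriched factors, and its level is not read as a sign of liver-type expression. It was at 68.5, 80.2, 35.7, 34.4 and 34.3 CPM in periodontitis offspring, against 96.8 to 142 CPM in control offspring (-1.19 ± 0.29, edgeR adjusted p = 0.0714).

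Cfd, adipsin, the protease that activates factor B and that adipocytes secrete, was the only gene of the 5 lists called for the difference of the dam effect between ages, at 7.47 ± 1.12 (edgeR adjusted p = 0.0156). At 7 weeks it was at 14.8, 10.4, 9.49, 39.4 and 0.174 CPM in periodontitis offspring, against 1.09, 0.588, 0.492, 0.389 and 0.845 CPM in control offspring. At 2 weeks it was at 0.206, 0.192, 0.142, 0.358 and 0.447 CPM in periodontitis offspring, against 1.96, 1.52, 3.07, 3.98 and 0.402 CPM in control offspring. The libraries that stand apart, periodontitis library 5 of 7 weeks and control library 5 of 2 weeks, lay outside their groups in both. Between dams it was called at neither age (edgeR adjusted p = 0.104 at 7 weeks and 0.0896 at 2 weeks).

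With age, the lists' counts are read against all genes, of which 30.4% rose and 35.7% fell in periodontitis offspring and 27.1% rose and 34.4% fell in control offspring. Of 19 further clotting genes 2 rose and 12 fell in periodontitis offspring, and 3 rose and 8 fell in control offspring. Of 19 further liver-type plasma protein genes 4 rose and 10 fell in periodontitis, and 3 rose and 11 fell in control offspring. Of 14 lectin pathway and further complement genes 3 rose and 6 fell in periodontitis, and 2 rose and 8 fell in control offspring. Of 12 liver-enriched transcription factor genes 3 rose and 3 fell in periodontitis, and 3 rose and 5 fell in control offspring. Of 9 complement receptor genes 0 rose in either, while 4 fell in periodontitis and 3 in control offspring, a share near that of all genes that fell. Klkb1, plasma prekallikrein, rose by 5.36 ± 0.58 in periodontitis and 3.76 ± 0.55 in control offspring, and Mbl2, mannose-binding lectin, by 4.63 ± 0.67 and 6.50 ± 0.80. Kng1, the substrate of kallikrein, had 0 counts at 7 weeks, at least 30.7-fold lower in periodontitis and at least 2.9-fold lower in control offspring. Apcs, serum amyloid P, also had 0 counts at 7 weeks, at least 21.5-fold and at least 12.5-fold lower. Itih2, of the further plasma protein genes, had 0 counts in periodontitis offspring at 7 weeks against 348 at 2 weeks, at least 57.1-fold lower. In control offspring Itih2 had 1 count at 7 weeks against 279 counts at 2 weeks.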

How the data were processed

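PolyA RNA of mouse small intestine was sequenced in 20 libraries, 5 in each of 4 groups defined by the titles of the labels. The authors deposited expected counts per gene for every library, and the submitters' processing notes list cutadapt 4.8, FastQC 0.11.8, STAR 2.7.8a and RSEM 1.3.3 without their order, and the builds GRCh38 and GRCm38. The annotation release and the strandedness of counting are not given in the sources used here. The deposited expected counts were whole numbers, so rounding changed 0 values. Of 55491 lines, 4 named no mouse gene and held 0 counts.

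Genes were filtered with edgeR 4.0.16 (filterByExpr by group), scaled by TMM and fitted with the robust quasi-likelihood model on 4 group means, with 16 residual degrees of freedom. The Benjamini-Hochberg adjustment covered all 17464 genes tested, with a threshold of 0.05, and an SE is the log2 fold change divided by the root of F. R 4.3.3, limma 3.58.1 and, as an alternative, DESeq2 1.42.0 were used, and the scripts were tested on simulated data. A fold against a group at 0 is a bound set at 3 counts over the group. Positions and exon lengths are from GENCODE M21 on GRCm38, whose identifiers matched 55141 genes and missed 346. Promoter windows are from RefSeq on GRCm38.p6, read with Biopython 1.88.

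Alternatives were other scaling, filters, no robust estimation, the compared groups alone, a replicate block, each library left out, and 2 libraries left out together. The highest correlation between libraries was 0.997, and no library was a copy of another. The labels do not say that libraries of a group came from separate animals or litters, so p-values measure the spread between these libraries only.

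The 44 genes, the lists and the tests were chosen with earlier results of these data known. Values of every library are given for genes called between dams, for the gene with the smallest p in each role at each age, and for the 4 largest called rises and falls with age in control offspring. In the other lists the genes called between dams were named, with some of the largest rises and falls with age. Fgb, Fgg, Ttr, C8g and C1qb as values by library, Kng1, Afp, Apcs, Itih2, Serpina1d, Serpina1e, Hp, Apoa2, Cp, Hnf4g and the named markers were added after their values were seen.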

Additional observations from a re-analysis of the deposited data

Results flagged for a closer look

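Among the 80 groups of 5 libraries of the genes chosen by the rules above, 10 had a library far from the other 4, and chance flags about 1 in 20 groups. The groups of Fga and Fgb at 7 weeks are among the 80 but held 0 counts throughout and could not be tested. At 2 weeks, 4 of them were control library 5, which stands apart in its mitochondrial share. It had 1.85 CPM of Cfp (4.32 to 4.6 in the other 4), 37.7 CPM of Cfb (131 to 154), 141 CPM of Cd55 (43.3 to 47.2) and 1.85 CPM of F13a1 (0.6 to 0.887). Control library 4 of 2 weeks had 16 CPM of Plau (6.2 to 9). Periodontitis library 1 of 2 weeks had 43.1 CPM of Serpina1b (23.3 to 27.9) and 40.6 CPM of Cd55 (31.3 to 33.1). At 7 weeks, periodontitis library 2 had 4.14 CPM of Plau (6.41 to 7.14), control library 3 had 7.94 CPM of C2 (5.11 to 5.84) and control library 2 had 0 CPM of C8b (0.0656 to 0.0805).

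The dam effect on Cfd differed between the ages, by 7.47 ± 1.12 on the log2 scale (edgeR adjusted p = 0.0156). It was 4.42 ± 0.81 at 7 weeks and -3.05 ± 0.79 at 2 weeks. In 4 of 5 periodontitis libraries of 7 weeks Cfd lay above all control libraries, and the exception was library 5.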

How the results depend on the processing

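No fold change of a named gene reversed: over 447 alternative values of 25 comparisons, 404 kept their side of the threshold, 23 lost it and 20 gained it. Scaling by DESeq2 size factors called 0 of the 37 genes and 0 of all genes at 2 weeks (2628 at an unadjusted p under 0.05). Fitting the compared groups alone called 0 and 0 at 2 weeks (2159 unadjusted) and 0 of all genes at 7 weeks (383). The cause was not tested. DESeq2 called 9 of the 37 and 599 genes in all at 2 weeks, 1 and 25 at 7 weeks, and 65 genes in all for the difference between ages. Without control library 5 of 2 weeks and periodontitis library 5 of 7 weeks, 8 of the genes and 361 in all were called at 2 weeks, 32 in all at 7 weeks, and 1 and 159 for the difference. Without robust estimation 17 genes in all were called at 2 weeks. Leaving out each library in turn gave 0 to 9 of the genes and 0 to 387 in all at 2 weeks, 0 to 0 and 0 to 15 at 7 weeks, and 0 to 0 and 1 to 26 for the difference. With age it gave 26 to 32 of the genes and 10794 to 13378 in all in periodontitis offspring. In control offspring it gave 25 to 29 of the genes and 10013 to 12408 in all. With the replicate number as a replicate block, 0 of the 37 genes were called in each comparison of dams, and 0 of all genes at 2 weeks (2015 unadjusted), 7 weeks (500) and for the difference (1139). Same-numbered libraries correlated between -0.4 and 0.29, so the numbers are not read as pairs. At 1 to 28 counts per group, C8a, Hc, F7, Serpind1 and Plg could not be compared at this depth.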
